A study of Oryctolagus cuniculus with 20 samples.

Results

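Tricuspid valves of rabbits treated with pergolide or dexfenfluramine were compared, as a single drug side, with the valves of non-treated and serotonin-treated rabbits. The members were chosen by treatment label alone: 10 valves (5 Pergolide, 5 Dexfenfluramine) formed the drug side and 10 valves (5 Control, 5 Serotonin) the comparison side, which is 20 of the 20 valves sequenced. Attention went to genes whose levels in the 10 valves of 1 side did not overlap those of the 10 valves of the other, called separated genes here.

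The animals were adult female New Zealand white rabbits kept on their treatment for 16 weeks. Serotonin was given at 80 mg/kg/day, pergolide at 0.5 mg/kg/day and dexfenfluramine at 20 mg/kg/day, all by mouth in the drinking water, and the Control rabbits drank water alone. These doses are those of the sample labels, and the study's text is not uniform on that of dexfenfluramine. Each valve was collected separately, total RNA was depleted of ribosomal RNA, and stranded libraries were sequenced to give a read count for every Ensembl gene.

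Atrioventricular valve leaflets are made of interstitial cells in a matrix of fibrillar collagen, proteoglycans and elastic fibres, covered by endothelium, and cardiomyocytes lie at the leaflet base where it joins the atrial wall. Pergolide, a dopamine agonist, and dexfenfluramine, an appetite suppressant whose metabolite norfenfluramine is active, are known to act on the serotonin receptor 5-HT2B, which couples to Gq. Long use of either drug has been linked to fibrotic valve disease in patients, as has the raised serotonin of carcinoid disease.

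Total counts per valve ran from 3526853 to 5831376 on the comparison side, with a median of 4533300, and from 3247091 to 5921025 on the drug side, with a median of 4502399. The mean total was 88841 higher on the drug side (two-sided permutation test, p = 0.799), and this difference changed sign when some single valves were left out. At least 1 count was found for 10606 to 11237 genes in a comparison valve, median 10821, and for 11049 to 11291 genes in a drug valve, median 11182. The gene with the most counts, ENSOCUG00000029084, for which no symbol was given, took 28.5, 39.3 and 48.1% of the counts (lowest, median and highest) in the comparison valves. Its share in the drug valves was 20.3, 31.5 and 35.7%. The mean share was 38.3% ± 6.16 (SD, n = 10) against 31.0% ± 4.51 (SD, n = 10), a difference of -7.29 percentage points (two-sided permutation test, p = 0.00694), and the sides overlapped. As a gene of the fit described below it changed by -0.86 ± 0.28 on the log2 scale (adjusted p = 0.018), which was not called when scaled to library totals or with the cardiomyocyte marker level as a covariate. Levels are given below as CPM (counts scaled to a common library size) after TMM normalization, which sets the scale by the bulk of the genes. The TMM factors ran from 0.584 to 1.25 on the comparison side, median 0.806, and from 0.990 to 1.72 on the drug side, median 1.20.

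Both sides differed across a large share of the genes, in both directions and in nearly equal number. Of 8683 genes tested with edgeR's quasi-likelihood test, 3682 (42.4%) were called at an adjusted p under 0.05, 1856 higher (21.4%) and 1826 lower (21%) on the drug side. The contrast was the mean of Pergolide and Dexfenfluramine minus the mean of Control and Serotonin on the log2 scale, and each fold change below is that difference ± its standard error. The median fold change was 0.46 for the genes called higher, with 125 over 1 in size, and -0.51 for those called lower, with 202 over 1 in size. Over all tested genes the median was 0.03.

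Symbols were known for 3456 of the tested genes. They came from a table of genes that the authors had chosen on these same valves, so genes with a symbol were called more often: 2704 of them (78.2%) were called, 1377 higher (39.8%) and 1327 lower (38.4%), against 18.7% of the 5227 genes with no symbol. Every list below holds genes with a symbol only, and its counts are to be read beside these shares and beside the median of -0.01 over the genes with a symbol.

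The scale matters to these directions. When each library was divided by its total count alone, the median of all tested genes moved to 0.52, and 5071 genes were called higher and 264 lower (95.1% higher, against 50.4% with TMM). Of the genes with a symbol, 1871 were then called higher and 200 lower. Of the 3682 called genes, 2164 were also called on that scale and 882 had the opposite sign. Falls are therefore falls relative to the bulk of the genes, and each list or gene whose sign turns with the library totals is named as such where its direction is given. When 4 surrogate variables estimated from the counts were added to a limma-voom fit, 1880 genes were called. Of the 3682 called genes, 1637 were also called in that fit and 107 had the opposite sign. In it, 18 of the 90 genes named here were no longer called: COL1A2, COL4A2, ADAM15, PARVA, PDGFRB, HLF, CRY2, ATP5J, PSMB6, TAGLN, PROX1, EMCN, KLB, AQP7, RASGRP1, BPGM, GYPC and MGP.

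The labels name no processing batch, so the drug side and any batch that ran with it cannot be told apart. The comparison of sides, and the 4 single comparisons of a drug with Control or with Serotonin, also share valves and are not independent of one another.

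Separated genes were the clearest form of the difference, since no valve of 1 side reached the range of the other. There were 237 genes (2.73%) with every drug valve above every comparison valve and 417 (4.80%) with every drug valve below, 654 in all. Among genes with a symbol, 223 (6.45%) were separated higher and 365 (10.6%) lower. All 654 were called, and 638 of them were also called in 1 direction in each of the 4 single comparisons, where 479 genes (5.52%) were called higher and 700 (8.06%) lower in all 4. The calls use the valves by which these genes were picked, so the 654 and 638 follow largely from the rule.

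**Figure D1:**
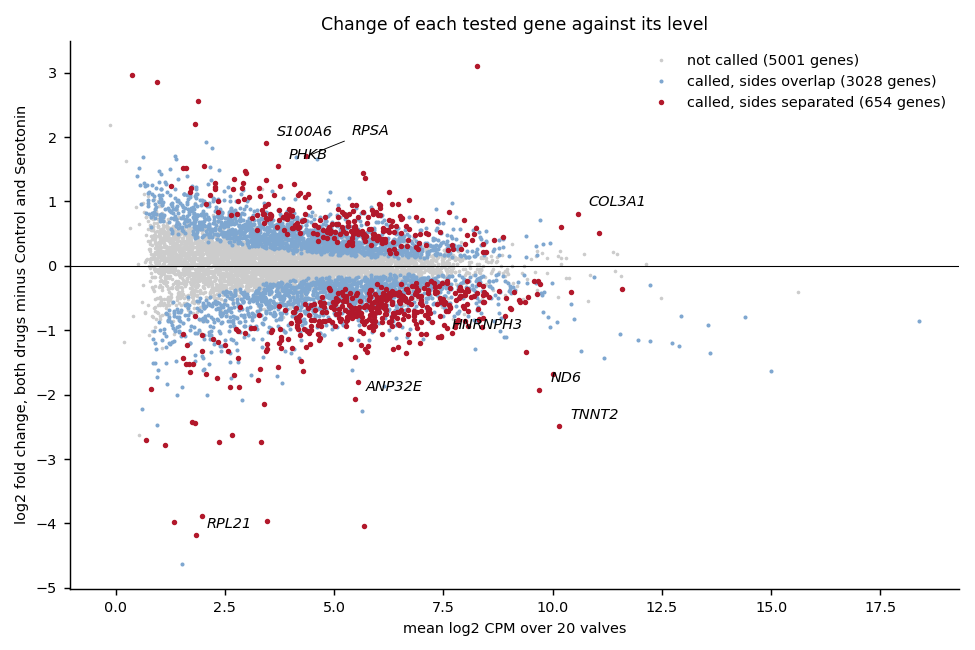
Each point is 1 of the 8683 tested genes, placed by its mean log2 CPM over the 20 valves and by its log2 fold change between the sides, with separated genes in red, other called genes in blue and the rest in grey. The 237 separated rises reach 3.11 and the 417 separated falls reach -4.18; scaled to library totals, 417 genes were separated higher and 18 lower.

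Separation did not need a large change. Fold changes of the separated rises ran from 0.20 to 3.11 with a median of 0.64, and 42 were over 1. The separated falls had a median of -0.69 and reached -4.18, the smallest being 0.23 in size, and 86 were over 1 in size. The gap between the nearest valves of the sides had a median of 0.13 on the log2 scale for the rises and 0.15 for the falls, and it was over 0.5 for 14 rises and 35 falls. Separated genes were also well expressed, with a median log2 CPM of 5.31 for the rises and 5.97 for the falls against 4.16 over all tested genes.

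The edge of the rule was thin, as 4 genes chosen after their values were seen show. CLK1, a kinase that phosphorylates splicing factors, was just separated, with a highest comparison valve of 271.9 CPM and a lowest drug valve of 272.0 CPM. SPOPL, a ubiquitin ligase adaptor, just missed, with 64.53 CPM in its highest comparison valve and 64.49 CPM in its lowest drug valve. For the falls, MAP1A, a microtubule-associated protein, was just separated (lowest comparison valve 156.9 CPM, highest drug valve 156.7 CPM). LIMCH1, which activates non-muscle myosin, just missed (517.73 and 517.78 CPM).

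A single valve also decided part of the count. Leaving out Control 3 alone would have separated 79 more of the called genes, Dexfenfluramine 3 alone 63, Control 4 alone 60 and Pergolide 3 alone 54, whereas Pergolide 4 alone would have added 9. With Control 3 and Dexfenfluramine 3 both left out, an alternative chosen after seeing the data, 802 genes were separated, 283 higher and 519 lower.

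The gene with a symbol and the largest separated rise at a mean log2 CPM of at least 3 was S100A6, a small calcium-binding protein. It stood at 2.53, 5.79 and 8.67 CPM in the comparison valves and at 15.7, 20.0 and 27.5 CPM in the drug valves, again lowest, median and highest. Every drug valve was above every comparison valve, and S100A6 rose by 1.90 ± 0.18 (adjusted p = 5.2e-08). PHKB, the beta subunit of phosphorylase kinase, which switches on glycogen breakdown, was at 5.36, 6.72 and 9.55 CPM in the comparison valves and at 19.5, 21.6 and 24.1 CPM in the drug valves. Its drug valves lay in a narrow band far from the other side, with a gap of 1.03 between the nearest valves, and the rise was 1.55 ± 0.10 (adjusted p = 6.0e-10).

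UBE2E3, a ubiquitin-conjugating enzyme, was at 5.06, 6.48 and 8.71 CPM in the comparison valves and at 13.3, 16.99 and 19.2 CPM in the drug valves. The sides did not meet, and it rose by 1.34 ± 0.10 (adjusted p = 2.3e-09). TMEM56-RWDD3, a locus that joins a membrane protein and a sumoylation enhancer, rose by 1.24, and RPL22L1, a paralog of a ribosomal protein, rose by 1.21, both with separated sides.

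**Figure D2:**
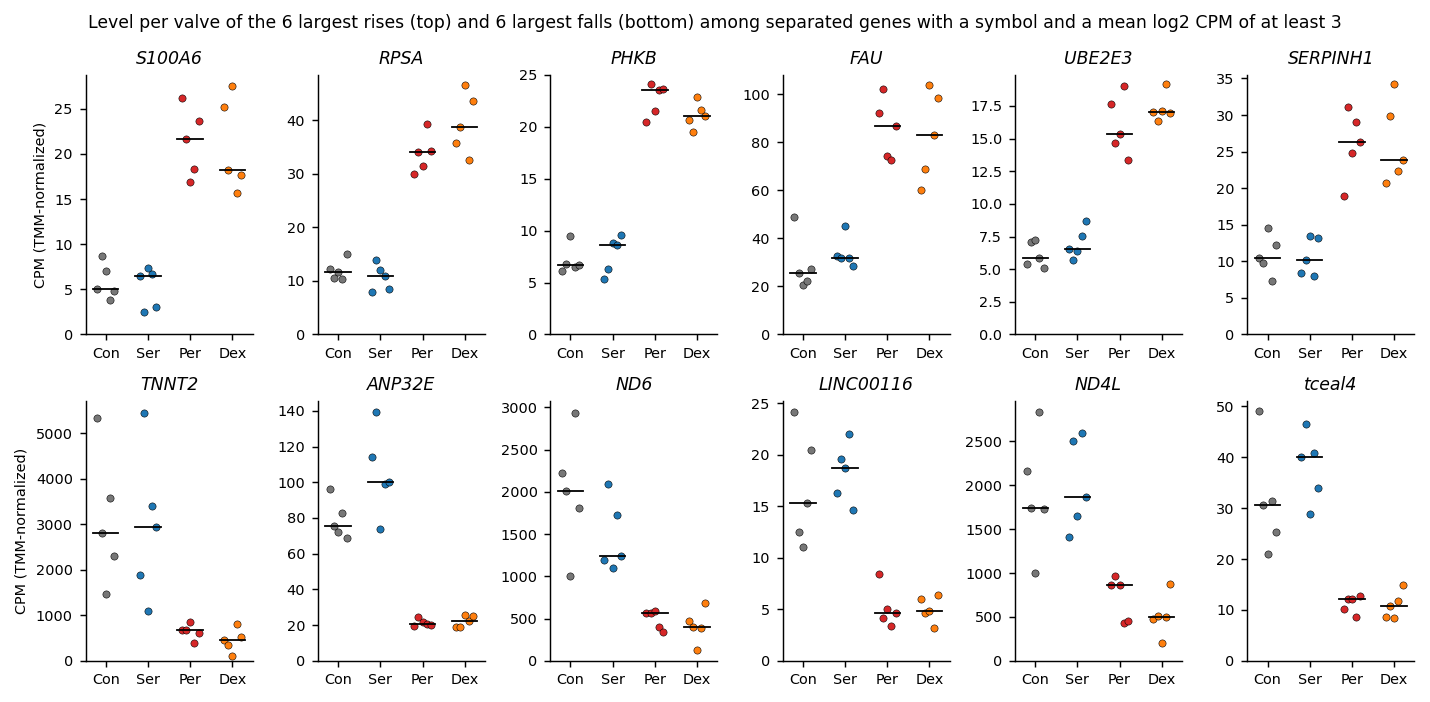
Points are valves (CPM after TMM) by group, Con for Control, Ser for Serotonin, Per for Pergolide and Dex for Dexfenfluramine, with a line at each group's median, for the 6 genes of largest rise (top) and the 6 of largest fall (bottom) among separated genes with a symbol and a mean log2 CPM of at least 3. S100A6 is at 15.7 CPM or more in every drug valve and at 8.67 CPM or less in every comparison valve, and ANP32E is at 25.4 CPM or less in every drug valve and at 68.6 CPM or more in every comparison valve.

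On the falling side, ANP32E, a chaperone that removes the histone variant H2A.Z from chromatin, had the widest gap between the sides among genes with a symbol and that level, 1.43 on the log2 scale. Its comparison valves were at 68.6, 89.5 and 140 CPM and its drug valves at 18.8, 21.1 and 25.4 CPM. No drug valve came near the comparison range, and ANP32E fell by 2.06 ± 0.10 on the log2 scale (adjusted p = 1.9e-11). TAF15, an RNA-binding protein of the FET family, was at 104, 133 and 196 CPM in the comparison valves and at 51.0, 57.1 and 64.8 CPM in the drug valves. The sides were separated by a gap of 0.69, and the fold change was -1.26 ± 0.09 (adjusted p = 9.8e-10). THRAP3, which takes part in transcription and splicing, changed by -1.27 with a gap of 0.68.

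Of the other falls among the 8 largest, LINC00116, which encodes a small mitochondrial peptide, changed by -1.77, tceal4, a transcription elongation factor-like gene, by -1.63, and CCDC12, a spliceosome component, by -1.60. TIMM8B, a chaperone of the mitochondrial intermembrane space, changed by -1.58. All 4 had separated sides. The rest of the 8 are ANP32E and the list members TNNT2, ND6 and ND4L.

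Some of the widest separations belonged to genes with no symbol. ENSOCUG00000018808 was at 77.8, 97.8 and 178 CPM in the comparison valves and at 784, 916 and 1109 CPM in the drug valves. It was high in all 10 drug valves, with a gap of 2.14 and a rise of 3.11 ± 0.14 (adjusted p = 6.7e-12), and ENSOCUG00000025875 rose by 1.37. ENSOCUG00000018201 was at 68.8, 211 and 926 CPM in the comparison valves and at 8.27, 14.2 and 16.9 CPM in the drug valves. It was low in all 10 drug valves and spread widely over the comparison valves, at a fold change of -4.04 ± 0.29 (adjusted p = 1.8e-09), and its Serotonin valves were above its Control valves by 1.88 (adjusted p = 0.029). No gene was called between Serotonin and Control without Control 2, without Control 5 or without Serotonin 1, so this call and the others between these groups given below were each lost when 1 of those valves was left out. ENSOCUG00000023154 changed by -3.96, from a median of 42.5 CPM to 2.44 CPM.

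**Figure D3:**
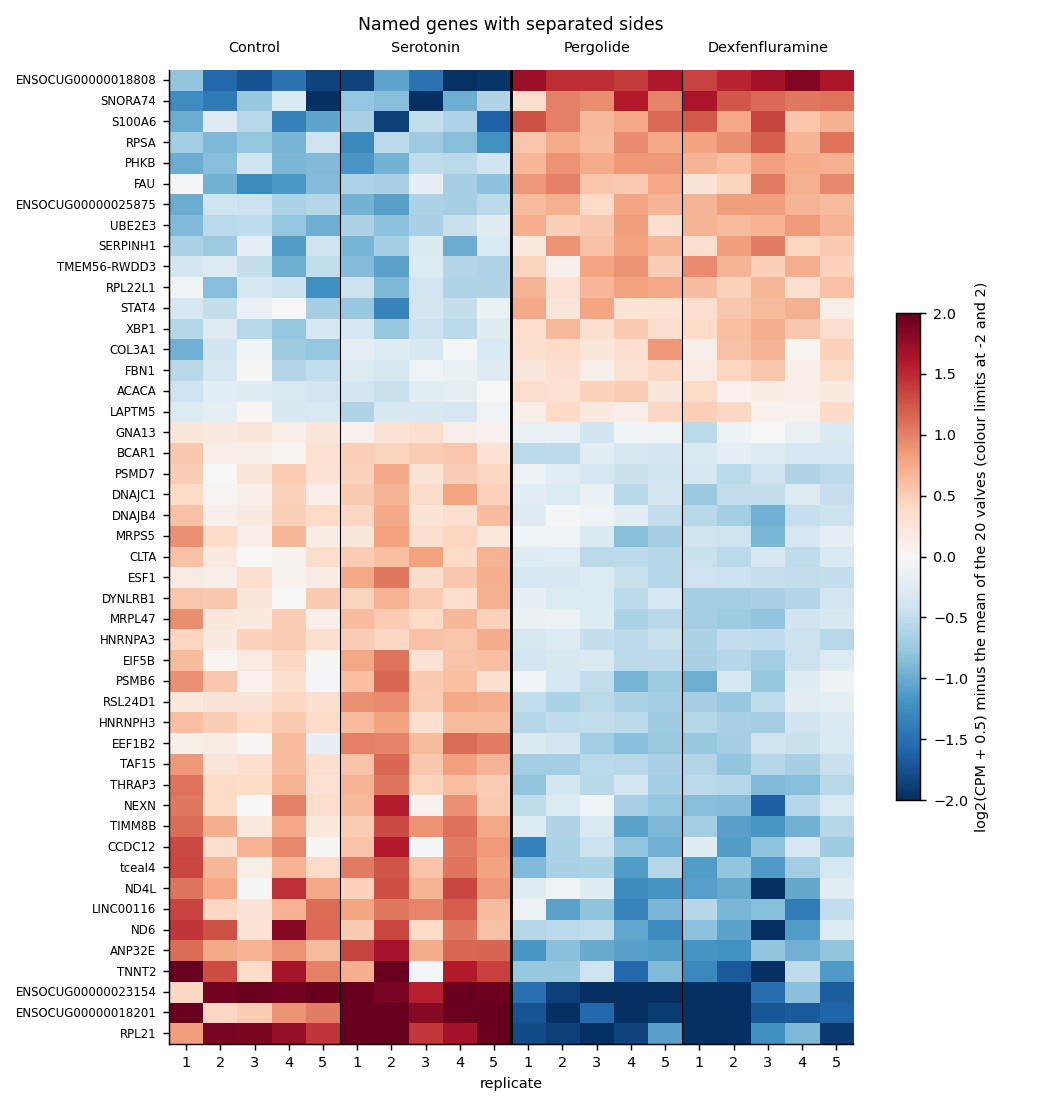
Each line is a named gene with separated sides (17 rises and 30 falls), ordered by fold change, and columns are the 20 valves; colour is log2(CPM + 0.5) minus the gene's mean over the valves, with limits at -2 and 2. All 10 drug valves lie to 1 side of all 10 comparison valves for each gene, and scaled to library totals GNA13 turns from a fall of -0.38 to 0.13.

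The extracellular matrix is the bulk of a leaflet, and its main load-bearing part is fibrillar collagen made by interstitial cells. All 4 tested fibrillar collagen chains rose, with a median of 0.76. COL3A1, the chain of type III collagen, was at 784, 1234 and 1492 CPM in the comparison valves and at 1581, 1982 and 2777 CPM in the drug valves. Every drug valve was above every comparison valve, by a small gap, and the rise was 0.81 ± 0.12 (adjusted p = 1.2e-05). COL1A2, a chain of type I collagen, was at 470, 681 and 1009 CPM in the comparison valves and at 874, 1028 and 1419 CPM in the drug valves. All 10 drug valves were above 9 of the comparison valves, but 5 of them were below Serotonin 4, and COL1A2 rose by 0.72 ± 0.12 (adjusted p = 6.6e-05). The median over the 4 chains was 0.95 for Pergolide and 0.96 for Dexfenfluramine against Control, and 0.55 and 0.57 against Serotonin.

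Of 10 other collagen chains, 6 rose and 4 were not called, with a median of 0.32 and no separated gene, and 10 rose on library totals and 4 with the cardiomyocyte covariate. COL4A2 and COL4A1, the common chains of basement membrane collagen, rose by 0.73 and 0.46. Among 7 genes of collagen folding and crosslinking, 4 rose and 1 fell, against 2 and 1 with that covariate and 6 and 0 on library totals. SERPINH1, the collagen chaperone HSP47, was at 7.35, 10.3 and 14.6 CPM in the comparison valves and at 18.96, 25.6 and 34.2 CPM in the drug valves. It was higher in each drug valve than in any comparison valve, and rose by 1.27 ± 0.14 (adjusted p = 3.2e-07). PPIB, a prolyl isomerase that helps collagen fold, went the other way at -0.78, a change that was not called when scaled to library totals.

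Elastic fibres are built on a scaffold of microfibrils. Of 9 genes in that list, 5 rose and 4 were not called, with a median of 0.35, and 8 rose on library totals. FBN1, the main microfibril protein, was at 771, 942 and 1186 CPM in the comparison valves and at 1255, 1452 and 1695 CPM in the drug valves. The sides were separated and FBN1 rose by 0.60 ± 0.08 (adjusted p = 6.2e-06). LTBP1, which tethers latent TGF-beta to microfibrils, rose by 0.56 with overlapping sides.

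Proteoglycans and the enzymes that make their sugar chains counted 14 rises and 2 falls among 24 tested genes, with a median of 0.38 and no separated gene. With the cardiomyocyte covariate 8 rose and 3 fell, and on library totals 21 rose and none fell. Summed CPM after TMM was 3516, 5268 and 6205 in the comparison valves and 5258, 5685 and 9003 in the drug valves. VCAN, the most abundant member, had a median of 2650 CPM on the comparison side and 2640 CPM on the drug side. NDST1 and EXT2, both of heparan sulfate synthesis, rose by 0.59 and 0.47, and the highest comparison valve of NDST1, at 27.8 CPM, was just above its lowest drug valve, at 27.7 CPM. HAPLN1, which links hyaluronan to proteoglycans and was also the only tested marker of chondrocytes, was at 16.2, 41.8 and 80.6 CPM in the comparison valves and at 40.8, 58.9 and 130 CPM in the drug valves. The sides overlapped and HAPLN1 was not called (0.53 ± 0.22, adjusted p = 0.057), though it was called by DESeq2, under upper-quartile and library-total scaling, and in 4 of the 20 fits that left out 1 valve. It was at 0.10 with the surrogate variables (adjusted p = 0.82) and at 0.14 with the cardiomyocyte covariate (adjusted p = 0.58). By group, HAPLN1 stood at 0.99 for Dexfenfluramine minus Control (adjusted p = 0.021), 0.63 for Dexfenfluramine minus Serotonin, 0.42 for Pergolide minus Control and 0.06 for Pergolide minus Serotonin. MGP, an inhibitor of calcification, was at 421, 814 and 1105 CPM in the comparison valves and at 617, 896 and 1266 CPM in the drug valves. The sides overlapped widely, and its call (0.31 ± 0.12, adjusted p = 0.045) was lost in 15 of the 20 fits that left out 1 valve, where the fold change ran from 0.22 to 0.40. MGP was at 0.72 and 0.68 for Pergolide and Dexfenfluramine against Control (adjusted p = 0.0047 and 0.0060) but at -0.06 and -0.10 against Serotonin. Serotonin valves held more MGP than Control valves, by 0.78 (adjusted p = 0.035), a call lost without Control 2, Control 5 or Serotonin 1.

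Among 12 matrix proteases and their inhibitors, 9 rose and 1 fell, with a median of 0.36, and 6 rose and 1 fell with the cardiomyocyte covariate. ADAM15, a membrane protease, rose by 0.86, while ADAMTS1, which cuts the proteoglycan versican, changed by -0.64 and was not called on library totals. By group, ADAMTS1 was not called for Pergolide minus Control (-0.15, adjusted p = 0.42) and stood at -0.49 for Dexfenfluramine minus Control. Against Serotonin it stood at -0.78 for Pergolide and -1.13 for Dexfenfluramine. Integrins and focal adhesion genes, which tie cells to the matrix, counted 11 rises and 3 falls of 19, with a median of 0.21, but 16 rises and no fall on library totals, with a median of 0.71. BCAR1, a docking protein of focal adhesions, was at 74.4, 94.1 and 107 CPM in the comparison valves and at 50.0, 57.6 and 63.6 CPM in the drug valves. It was lower in every drug valve than in any comparison valve (-0.69 ± 0.06, adjusted p = 5.2e-08), but was not called on library totals. PARVA, an actin-binding partner of integrin-linked kinase, rose by 0.39.

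TGF-beta signalling drives interstitial cells to make matrix, and receptor tyrosine kinases drive their growth. Of 18 genes of TGF-beta and BMP signalling, 13 rose and 2 fell, with a median of 0.44 and none separated. With the cardiomyocyte covariate 10 rose and 2 fell, and on library totals 16 rose and none fell. Fold changes in the list ran from -1.07 to 0.84. BMPR2, the most abundant member, had a median of 281 CPM on the comparison side and 239 CPM on the drug side. SMAD4, the shared partner of the signalling SMADs, was at 56.1, 62.1 and 71.4 CPM in the comparison valves and at 71.3, 78.4 and 88.1 CPM in the drug valves. Its ranges met only at their edges, and SMAD4 rose by 0.34 ± 0.06 (adjusted p = 6.5e-05). TGFBR3, a co-receptor that presents TGF-beta to its receptor, rose by 0.46. The median of this list was 0.34 for Pergolide and 0.48 for Dexfenfluramine against Control, and 0.22 and 0.29 against Serotonin.

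Growth factors and receptor tyrosine kinases counted 8 rises and 4 falls of 16, with a median of 0.35, and 11 rises and no fall on library totals and 5 rises and 2 falls with the cardiomyocyte covariate. PDGFRB, a receptor of mesenchymal cells, rose by 0.64. SOS1, which activates Ras below such receptors, changed by -0.31 but by 0.18 when scaled to library totals, and it was higher in Serotonin than in Control valves by 0.30 (adjusted p = 0.037), again a call lost without Control 2, Control 5 or Serotonin 1.

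Serotonin handling and Gq signalling gave 2 rises and 2 falls among 7 tested genes, and its median of -0.06 turned to 0.48 on library totals, where 4 rose and none fell. GNA14, a Gq family alpha subunit, changed by -0.59 and was not called on library totals. GNA13, another G protein alpha subunit, was at 31.4, 34.1 and 36.8 CPM in the comparison valves and at 20.2, 26.6 and 29.3 CPM in the drug valves. Every drug valve was below every comparison valve (-0.38 ± 0.07, adjusted p = 1.4e-04), and the sign turned, to 0.13, on library totals. Circadian clock genes, which cycle over the day in most tissues, counted 5 rises and no fall among 9, with a median of 0.45. HLF and CRY2, an output factor and a repressor of the clock, rose by 0.58 and 0.45. Neither was called against Serotonin for either drug, at 0.33 (adjusted p = 0.18) and 0.38 (adjusted p = 0.11) for HLF with Pergolide and Dexfenfluramine, and at 0.33 (adjusted p = 0.14) and 0.35 (adjusted p = 0.10) for CRY2. The clock list had a median of 0.54 and 0.57 against Control and of 0.19 and 0.35 against Serotonin, no gene of it was called in all 4 single comparisons, and 3 rose with the cardiomyocyte covariate.

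Messenger RNA is spliced by small nuclear ribonucleoproteins with the help of hnRNPs and SR proteins, and this list held the most separated falls. Of 51 tested genes, 10 rose and 38 fell, with a median of -0.50, and 5 were separated higher and 24 lower. On library totals 12 rose and 11 fell, with a median of -0.01. HNRNPH3 was at 220 to 305 CPM in the comparison valves, with a median of 257, and at 105, 118 and 143 CPM in the drug valves. No drug valve reached the comparison range, and the fold change was -1.09 ± 0.07 (adjusted p = 2.4e-10). HNRNPA3 was at 300, 369 and 443 CPM in the comparison valves and at 171, 191 and 220 CPM in the drug valves. These sides did not overlap either, with a narrower gap than for HNRNPH3, at -0.94 ± 0.06 (adjusted p = 2.4e-10). The list's median was -0.38 for Pergolide and -0.37 for Dexfenfluramine against Control, and -0.61 and -0.54 against Serotonin, whose own median against Control was 0.18.

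Ribosomes are assembled in the nucleolus by a large set of factors. Of 37 ribosome biogenesis genes, 5 rose and 28 fell, 14 of them separated, and the median of -0.47 turned to 0.04 on library totals, where 6 rose and 11 fell. RSL24D1, a factor of large subunit assembly, was at 78.3, 93.4 and 131 CPM in the comparison valves and at 40.0, 45.1 and 59.8 CPM in the drug valves. Its drug valves were all below its comparison valves, at -1.06 ± 0.08 (adjusted p = 1.7e-09). ESF1, which acts in small subunit assembly, changed by -0.87 with separated sides. Both were higher in Serotonin than in Control valves, by 0.49 (adjusted p = 0.031) and 0.53 (adjusted p = 0.029), calls lost without Control 2, Control 5 or Serotonin 1.

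Cytosolic ribosomal proteins form the ribosome with its RNA. Of 52 genes, 28 rose and 18 fell, and 11 were separated higher and 7 lower, with a median of 0.31. On library totals 34 rose and 7 fell, with a median of 0.80. The summed level did not follow the count of rises. Summed CPM after TMM was 6125, 7454 and 8264 in the comparison valves and 5904, 6734 and 7630 in the drug valves. RPL4, the most abundant member, had a median of 1106 CPM on the comparison side and 923 CPM on the drug side. RPSA, a small subunit protein that is also a laminin receptor, was at 7.92, 11.3 and 14.96 CPM in the comparison valves and at 29.9, 35.03 and 46.6 CPM in the drug valves. The sides were far apart, and RPSA rose by 1.70 ± 0.10 (adjusted p = 2.4e-10). FAU, which carries ribosomal protein S30, was at 20.5, 30.0 and 48.7 CPM in the comparison valves and at 60.2, 84.8 and 104 CPM in the drug valves, a rise of 1.44. RPL21 ran against these, with 6.13, 12.6 and 18.8 CPM in the comparison valves and 0, 0.520 and 1.49 CPM in the drug valves. It was near 0 in every drug valve, and its fold change of -4.18 ± 0.27 (adjusted p = 6.1e-10) was the largest fall among separated genes. RPL11, of the large subunit, was at 188, 281 and 351 CPM in the comparison valves and at 137, 180 and 222 CPM in the drug valves. Its sides overlapped, and the change of -0.62 ± 0.08 (adjusted p = 4.4e-06) was not called on library totals. Ribosomal protein genes have many near-identical copies, and the sources used here do not give how reads with several matches were handled, so which copy a level belongs to is uncertain.

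Translation factors and tRNA synthetases had 18 rises and 12 falls among 30 genes, none of them uncalled, and a median of 0.22, but 20 rises and 2 falls on library totals, with a median of 0.71. EEF1B2, which recharges elongation factor 1A, was at 149, 258 and 361 CPM in the comparison valves and at 93.4, 114 and 136 CPM in the drug valves. All drug valves were lower (-1.11 ± 0.10, adjusted p = 2.9e-08), and Serotonin valves were above Control valves by 0.79 (adjusted p = 0.029), a call also lost without Control 2, Control 5 or Serotonin 1. EIF5B, which joins the ribosomal subunits, changed by -0.94 with separated sides. The falls of EEF1B2 and EIF5B do not stand for the list. Its summed CPM was 5351, 5812 and 6221 in the comparison valves and 6034, 6239 and 6624 in the drug valves. EEF1A1, its most abundant member, had a median of 1769 CPM on the comparison side and 2574 CPM on the drug side.

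Small nuclear and nucleolar RNAs guide the modification of ribosomal and spliceosomal RNA. All 37 tested were called, 13 higher and 24 lower, with a median of -0.97, and 1 was separated higher and 5 lower. On library totals 13 rose and 17 fell, with a median of -0.43. SNORA74 was at 0, 0.585 and 1.18 CPM in the comparison valves and at 2.11, 3.79 and 5.81 CPM in the drug valves. Its levels were low on both sides but did not overlap, at 2.86 ± 0.32 (adjusted p = 4.6e-07), and SNORA53 rose by 1.70 with overlapping sides. These short genes also occur in many copies, often inside introns of other genes, with the same uncertainty as the ribosomal proteins.

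**Figure D4:**
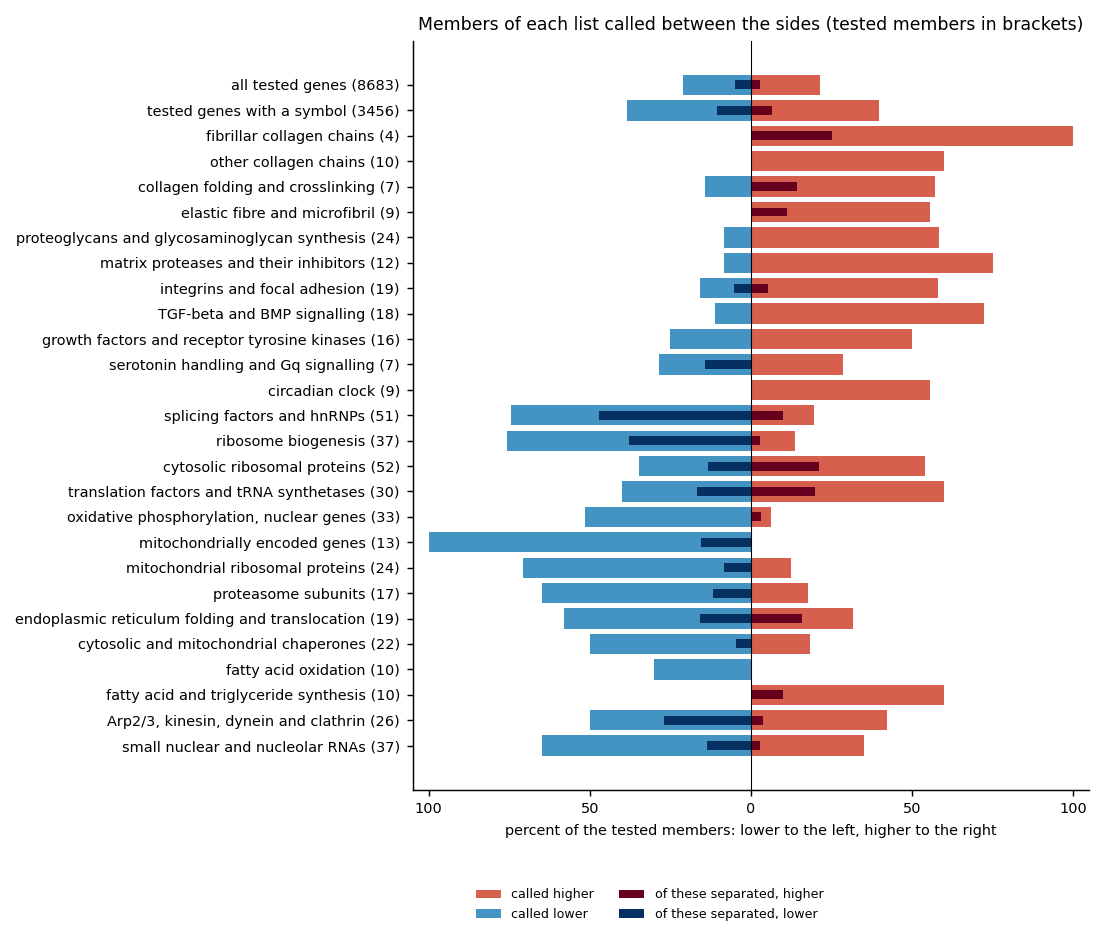
Bars give the percent of each list's tested members (number in brackets) called higher, to the right, or lower, to the left, on the drug side, with separated members as the dark inner bars. Splicing factors have 38 of 51 called lower and fibrillar collagen chains 4 of 4 higher. Over tested genes with a symbol, 39.8% were called higher and 38.4% lower, against 21.4% and 21% over all tested genes. On library totals the medians of 10 of the 37 process and marker lists change sign.

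Heart muscle is rich in mitochondria, and cardiomyocytes at the leaflet base can be part of a dissected valve. Cardiomyocyte markers summed to 54994, 107473 and 166287 CPM in the comparison valves and to 13696, 71870 and 100963 CPM in the drug valves, overlapping between the sides. The lowest comparison valve was Control 3 and the lowest drug valve Dexfenfluramine 3. The most abundant marker was TTN, the giant spring protein of the sarcomere, with a median of 68294 CPM on the comparison side and 48532 CPM on the drug side. Of 22 markers, 9 fell, none rose and 13 were not called, with a median of -0.64, and the share that fell is close to the 38.4% of all genes with a symbol. On library totals 2 rose and 4 fell, with a median of -0.10. By group, the median was -0.65 for Pergolide and -1.05 for Dexfenfluramine against Control, and -0.15 and -0.51 against Serotonin. Serotonin's own median against Control was -0.43. In such whole-tissue RNA, fewer cells of a type and less RNA per cell cannot be told apart.

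TNNT2, cardiac troponin T, was at 1104, 2877 and 5449 CPM in the comparison valves and at 102, 569 and 857 CPM in the drug valves. Every drug valve was below every comparison valve, and TNNT2 had the largest fall among separated genes with a symbol and a mean log2 CPM of at least 3, at -2.49 ± 0.32 (adjusted p = 3.2e-06). NEXN, an actin-binding protein of the Z-disc, was at 667, 1011 and 2007 CPM in the comparison valves and at 216, 441 and 631 CPM in the drug valves. It too was separated, at -1.34 ± 0.19 (adjusted p = 9.2e-06).

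**Figure D5:**
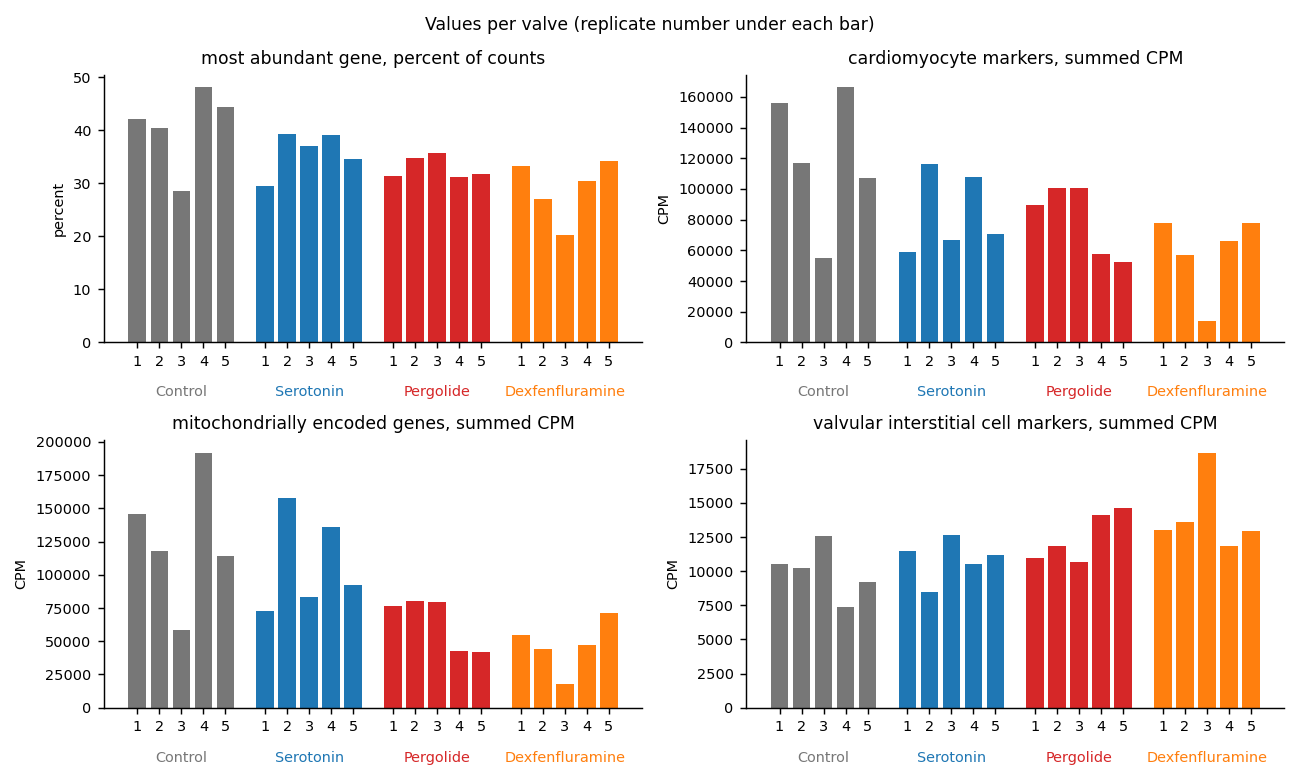
Bars give, for each of the 20 valves, the share of the most abundant gene (percent of counts) and the summed CPM of cardiomyocyte markers, mitochondrially encoded genes and valvular interstitial cell markers. Dexfenfluramine 3 has the lowest cardiomyocyte sum, 13696 CPM, and the highest interstitial sum, 18692 CPM, and Control 4 has the highest cardiomyocyte sum, 166287 CPM.

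Every gene was also fitted with the cardiomyocyte marker level as a covariate, whose difference between the sides was not itself tested. This is an alternative chosen after seeing the data. The fit called 1733 genes higher and 1574 lower, and 2818 of the 3682 called genes were still called. Without Control 3 and Dexfenfluramine 3, 14 cardiomyocyte markers fell and none rose.

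The 13 mitochondrially encoded genes, all subunits of the respiratory chain or ATP synthase, all fell, with a median of -1.25 that was -0.72 on library totals, where 11 fell. Their sum was 58211, 116187 and 191970 CPM in the comparison valves and 17608, 50746 and 80164 CPM in the drug valves, with COX1 the most abundant. ND6, a subunit of complex I, was at 1005, 1772 and 2937 CPM in the comparison valves and at 132, 439 and 687 CPM in the drug valves. The sides were separated, at -1.92 ± 0.23 (adjusted p = 1.3e-06), and ND4L, of the same complex, was separated by a narrow gap at -1.68. With the cardiomyocyte level as a covariate, 11 of the 13 were called lower.

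Nuclear genes of oxidative phosphorylation counted 2 rises and 17 falls of 33, and their median of -0.48 turned to 0.04 on library totals, where 9 rose and 6 fell. NDUFB6, of complex I, and ATP5J, of ATP synthase, changed by -1.04 and -1.15 with overlapping sides. With the cardiomyocyte covariate this list counted 8 rises and 7 falls. Mitochondrial ribosomal proteins counted 3 rises and 17 falls of 24, with a median of -0.53, and 12 falls with the covariate. On library totals 5 rose and 4 fell, with a median of -0.01. MRPL47, of the large subunit, was at 23.5, 30.6 and 41.8 CPM in the comparison valves and at 12.4, 15.6 and 20.0 CPM in the drug valves. Its sides were separated, at -0.94 ± 0.11 (adjusted p = 7.0e-07), as were those of MRPS5, of the small subunit, at -0.84.

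Fatty acid oxidation, the main fuel route of heart muscle, had 3 falls and no rise among 10 genes, and its median of -0.38 turned to 0.13 on library totals. ECHS1 and ACADM, both enzymes of the pathway in mitochondria, changed by -0.77 and -0.70, and neither was called on library totals. For Pergolide, ACADM was not called against Control or Serotonin (adjusted p = 0.071 and 0.087), nor ECHS1 against Serotonin (adjusted p = 0.13). Both were called for Dexfenfluramine against either group. The list's median was -0.40 and -0.04 for Pergolide against Control and Serotonin, and -0.70 and -0.32 for Dexfenfluramine. The covariate fit gave 3 rises and 3 falls in this list. On library totals 3 rose and none fell. Of 10 genes of fatty acid and triglyceride synthesis, 6 rose and none fell, with a median of 0.48. ACACA, the enzyme that commits carbon to fatty acid synthesis, was at 53.2, 60.3 and 72.7 CPM in the comparison valves and at 77.5, 87.3 and 104 CPM in the drug valves. It was higher in every drug valve, at 0.56 ± 0.06 (adjusted p = 5.0e-07), and ELOVL5, which lengthens polyunsaturated fatty acids, rose by 0.50 with overlapping sides.

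Secreted proteins fold in the endoplasmic reticulum, and other chaperones and the proteasome handle proteins in the cytosol. In the endoplasmic reticulum list, 6 rose and 11 fell of 19, and the median of -0.27 turned to 0.22 on library totals, where 9 rose and none fell. XBP1, the transcription factor of the unfolded protein response, was at 37.9, 46.5 and 55.1 CPM in the comparison valves and at 81.8, 90.2 and 108 CPM in the drug valves. It stood clear of the other side in all 10 drug valves, and rose by 0.96 ± 0.08 (adjusted p = 8.2e-09). DNAJC1, a co-chaperone of the same compartment, was separated the other way at -0.80, which was not called on library totals.

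Cytosolic and mitochondrial chaperones counted 4 rises and 11 falls of 22, and the median of -0.32 turned to 0.19 on library totals, where 10 rose and 2 fell. DNAJB4, a co-chaperone of HSP70, was separated at -0.84, and HSPA4, a nucleotide exchange factor for HSP70, changed by -0.60, not called on library totals. Of 17 proteasome subunits, 3 rose and 11 fell, and the median of -0.34 turned to 0.17 on library totals, where 6 rose and 1 fell. PSMB6, a catalytic subunit, and PSMD7, of the regulatory cap, were separated at -1.01 and -0.80, the latter not called on library totals.

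Genes of Arp2/3, kinesin, dynein and clathrin, which move and shape membranes and filaments, counted 11 rises and 13 falls of 26, and the median of -0.17 turned to 0.35 on library totals, where 14 rose and 4 fell. DYNLRB1, a dynein light chain, was at 25.6, 36.5 and 41.9 CPM in the comparison valves and at 15.5, 18.7 and 22.6 CPM in the drug valves. The sides did not overlap, at -0.94 ± 0.08 (adjusted p = 2.4e-08), and CLTA, a clathrin light chain, was separated at -0.85. The immediate early genes NR4A3 and MYC, which respond to handling and stimulation, were not called, at -0.86 ± 0.45 (adjusted p = 0.13) and -0.21 ± 0.16 (adjusted p = 0.30), and MYC turned to 0.28 on library totals but was called lower with the cardiomyocyte covariate (-0.41, adjusted p = 0.045). By group, NR4A3 was called for Dexfenfluramine minus Control (-1.97, adjusted p = 0.028) and stood at -0.49 for Pergolide minus Control, -1.23 for Dexfenfluramine minus Serotonin and 0.25 for Pergolide minus Serotonin. MYC stood at -0.61 and -0.46 for Pergolide against Control and Serotonin, and at 0.05 and 0.19 for Dexfenfluramine.

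Markers of the cells a valve can hold were counted in the same way. Valvular interstitial cell markers summed to 7373, 10518 and 12661 CPM in the comparison valves and to 10689, 13007 and 18692 CPM in the drug valves, with VIM, an intermediate filament protein, the most abundant. The sums overlapped, and 5 of 10 markers rose and none fell (10 rose on library totals), with a median of 0.42 that was 0.90 on library totals, and with COL3A1, COL1A2 and PDGFRB among the rises. COL3A1 and COL1A2 are also in the fibrillar collagen list and PDGFRB in the growth factor list, so these counts partly repeat those above. Activated interstitial cell markers had 3 rises among 5, and 3 rises and 1 fall with the cardiomyocyte covariate. They summed to 196, 381 and 472 CPM in the comparison valves and to 293, 390 and 609 CPM in the drug valves. The most abundant was CDH11, with a median of 217 CPM on the comparison side and 175 CPM on the drug side. NOX4, an oxidase linked to myofibroblasts, and TAGLN, an actin-binding protein shared with the smooth muscle list, rose by 0.76 and 1.24, both with overlapping sides.

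Endothelial markers summed to 465, 677 and 779 CPM in the comparison valves and to 394, 544 and 690 CPM in the drug valves, with PTPRB the most abundant. Of 6 markers, 1 rose and 3 fell, and the median of -0.39 turned to 0.10 on library totals, where 2 rose and none fell. PROX1, a transcription factor of lymphatic and valve endothelium, and EMCN, an endothelial sialomucin, changed by -0.62 and -0.58, neither called on library totals. Smooth muscle markers had 1 rise and 3 falls of 5, with sums of 295, 438 and 760 CPM against 138, 418 and 539 CPM, led by DES. Their median of -0.66 was -0.13 on library totals, where 2 rose and 1 fell, and 2 rose and 1 fell with the cardiomyocyte covariate. PPP1R14A, an inhibitor of myosin phosphatase, changed by -0.78, not called on library totals.

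Macrophage markers summed to 38.8, 52.6 and 78.6 CPM in the comparison valves and to 59.0, 86.3 and 100 CPM in the drug valves, and 4 of 5 rose. LAPTM5, a lysosomal protein of blood cells and the most abundant of them, was at 19.1, 23.4 and 30.2 CPM in the comparison valves and at 30.9, 35.9 and 40.7 CPM in the drug valves. Its sides were separated by a narrow gap (0.54 ± 0.08, adjusted p = 1.7e-05), and CD53, a leukocyte tetraspanin, rose by 1.00 with overlapping sides. Of 2 lymphocyte markers, STAT4, a cytokine signalling factor, was separated and rose by 1.01, and RASGRP1, an activator of Ras in T cells, changed by -0.93, not called on library totals or with the cardiomyocyte covariate. Against Control and Serotonin, RASGRP1 was not called for Pergolide (-0.37 and -0.55, adjusted p = 0.47 and 0.27). It stood at -1.31 and -1.49 for Dexfenfluramine.

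Adipocyte markers summed to 89.4, 134 and 258 CPM in the comparison valves and to 21.8, 223 and 385 CPM in the drug valves, led by CD36, and 3 of 9 rose with no fall, while 8 rose on library totals and 7 with the cardiomyocyte covariate. KLB, a co-receptor for FGF21, and AQP7, a glycerol channel, rose by 1.28 and 1.26 from low and overlapping levels. These values rest on the group pairs unevenly, and KLB stood at 2.94 for Pergolide minus Control but at -0.39 for Dexfenfluramine minus Serotonin, and AQP7 at 2.39 and 0.12. The median over the 9 markers was 2.03 for Pergolide minus Control, 0.77 for Pergolide minus Serotonin, 0.66 for Dexfenfluramine minus Control and -0.42 for Dexfenfluramine minus Serotonin. In the pooled comparison KLB was not called by limma-voom or with the sides as the only factor. AQP7 was not called without Dexfenfluramine 5, at 1.00. Of 2 erythroid markers, BPGM, an enzyme of red cell glycolysis, rose by 0.65 and GYPC, a membrane glycoprotein, changed by -0.40, a sign that turned, to 0.08, on library totals and a call that was lost with the cardiomyocyte covariate and absent from each of the 4 single comparisons. Of 3 tested Schwann cell markers, only CDH19 and S100B are given here, and their values do not stand for the list. Neither was called, at -0.49 ± 0.21 (adjusted p = 0.071) and -0.49 ± 0.22 (adjusted p = 0.078). CDH19 and S100B were above 0 on library totals, at 0.02 and 0.04. CDH19 was called lower by DESeq2, without Control 3 and Dexfenfluramine 3 and in 4 of the 20 fits that left out 1 valve, but was at 0.01 with the cardiomyocyte covariate, and S100B was called lower in 3 of those 20 fits. By group, S100B stood at -0.94 for Pergolide minus Control (adjusted p = 0.033) and -0.86 for Pergolide minus Serotonin (adjusted p = 0.050), but at -0.13 and -0.04 for Dexfenfluramine. The part of these cell types in the results was not tested. The cardiomyocyte fit used marker levels of the same valves, so it cannot tell fewer cells from less marker RNA per cell.

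Within the drug side, the drugs were given at doses that were not matched, so their values stand side by side. No gene was called between Dexfenfluramine and Pergolide by edgeR's quasi-likelihood test (0 of 8683, 0.00%), while 613 genes had an unadjusted p under 0.05. DESeq2 called 4 and limma-voom 0. The median size of the difference between the drugs over the separated genes was 0.07. The rule for separated genes favours small differences within a side, so this value does not stand for all genes. A p that misses the threshold does not show that the drugs act alike, and TNNT2 differed by -0.52 ± 0.43 (Dexfenfluramine minus Pergolide, adjusted p = 0.79). The Dexfenfluramine mean was farther from the comparison side than the Pergolide mean in 140 of the 237 separated rises and in 221 of the 417 separated falls.

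Within the comparison side, the Serotonin mean lay beyond the Control mean in most of the separated falls, which was not tested. Between these groups 103 genes (1.19%) were called, 90 higher and 13 lower with Serotonin, and 1372 had an unadjusted p under 0.05. That count moved with the valves, from 0 without Control 2, without Control 5 or without Serotonin 1 to 257 without Control 3, and was 481 without Control 3 and Dexfenfluramine 3. In the 3 fits with no call, 1183, 1255 and 1106 genes had an unadjusted p under 0.05, and DESeq2 called 234 with all valves. Over the separated genes, picked by the same rule, the median size of the difference was 0.14. In 341 of the 417 separated falls the Serotonin mean lay farther from the drug side than the Control mean did, which held for 317 to 396 of them under the other scalings. For the 237 separated rises it was 123, and 52 on library totals, so no direction held for them. Such counts were not taken over all tested genes or with a valve left out. The median of Serotonin minus Control was 0.16 over the separated falls and 0.01 over all tested genes.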

How the data were processed

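RNA from 20 tricuspid valves was measured, and the values used are the deposited counts of reads per Ensembl gene (23669 genes), whole numbers without normalization. Per the submitters' processing notes, reads were aligned to oryCun2 with TopHat2 2.1.1, checked with Picard and counted with HTSeq in union mode. Columns were matched to groups by letter and number, and none was left out. TMM factors and the filter filterByExpr, given the 4 groups, came from edgeR 4.0.16 under R 4.3.3, which left 8683 of the 13749 genes with a count, and a fit of the 4 groups was tested with edgeR's quasi-likelihood test, with Benjamini-Hochberg adjustment over all tested genes and a threshold of 0.05. Log2 CPM used a prior count of 2. Standard errors are the size of the log2 fold change over the square root of F. Totals and shares were compared by two-sided permutation tests with 100000 resamples (Python 3.11.15, scipy 1.17.1, numpy 2.4.6, pandas 2.3.3), and plots used matplotlib 3.10.9. The tests were tested on simulated data.

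Gene symbols came from the symbol column of the study's supplementary gene table: of 3799 identifiers, 564 had 12 digits and lost 1 zero, 276 matched no gene of the counts and 2 repeated a gene, which left 3521 genes with a symbol. The 26 process lists and 11 marker lists, the members and the rules were chosen with earlier results of these data known. Named genes are the 8 largest rises and falls and the 3 widest gaps in each direction among called, separated genes with a symbol and a mean log2 CPM of at least 3, the 2 members of smallest p of each list, 4 protein-coding genes that the study also measured by RT-qPCR (COL1A2, MGP, RPL11, HAPLN1), 2 rises and 2 falls without a symbol and the most abundant gene, 90 in all. Alternatives were DESeq2 1.42.0, limma-voom (limma 3.58.1) without and with svaseq variables (sva 3.50.0), the sides as the only factor, a replicate block, other scalings, other filters, an adjusted p under 0.01 and each valve left out. The authors' RUVr and HTSFilter steps were not run. Total counts of 3247091 to 5921025 per valve limit genes with few reads, and the spread between 10 valves a side limits the rest.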

Additional observations from a re-analysis of the deposited data

Results flagged for a closer look

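In 408 groups of 5 valves (4 groups for each named gene, marker sum, total and share), 25 had a valve far from the other 4, where chance gives about 1 in 20. Among Control valves, Control 1 stood high for FAU (48.7 CPM, others 20.5 to 27.4), MGP (816.7 CPM), ENSOCUG00000018808 (177.8 CPM) and ENSOCUG00000018201 (239.5 CPM), and low for ENSOCUG00000023154 (14.43 CPM, others 42.0 to 53.2). Control 3 stood high for PHKB (9.48 CPM), LTBP1 (334.1 CPM) and ESF1 (97.43 CPM). Control 4 stood high for COL4A1 (80.6 CPM), SNORA53 (18.53 CPM) and the adipocyte marker sum (207.4 CPM), and low for GNA14 (34.71 CPM).

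Among Serotonin valves, Serotonin 3 stood high for FAU (45.0 CPM) and low for EEF1B2 (258.3 CPM), Serotonin 2 high for PSMB6 (107.3 CPM) and Serotonin 5 high for the macrophage marker sum (78.65 CPM). Pergolide 5 stood high for COL3A1 (2777 CPM), and Pergolide 2 had a total count of 5921025, against 4484239 to 4848510 in the others. LTBP1 (318.6 CPM) and GNA13 (22.13 CPM) were low in Pergolide 3, and EXT2 (28.16 CPM) in Pergolide 1. Among Dexfenfluramine valves, Dexfenfluramine 3 stood high for PPIB (82.79 CPM) and the interstitial marker sum (18692 CPM), Dexfenfluramine 4 for UBE2E3 (19.2 CPM) and Dexfenfluramine 1 for SNORA74 (5.809 CPM).

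For 7 named genes the change against Control differed from that against Serotonin, by edgeR's quasi-likelihood test of Serotonin minus Control at an adjusted p under 0.05. The log2 differences were 0.63 for ADAMTS1, 0.30 for SOS1, 0.49 for RSL24D1, 0.53 for ESF1, 0.79 for EEF1B2, 0.78 for MGP and 1.88 for ENSOCUG00000018201. All 7 calls were lost without Control 2, without Control 5 or without Serotonin 1, where no gene was called between these groups. Their causes were not tested.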

How the results depend on the processing

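Counts of genes called or separated between the sides were within 1.5 times those reported under most alternatives, whereas the count between Serotonin and Control was not; the cause was not tested. Limma-voom with svaseq variables called 1880 genes, 855 higher and 1025 lower, and 574 in all 4 single comparisons. Library totals called 5071 higher and 264 lower and separated 435 genes, 417 higher and 18 lower, with 153 of the 654 separated genes still separated and called. An adjusted p under 0.01 called 1196 higher and 669 in all 4. Genes called between Serotonin and Control were 234 with DESeq2 (4 between the drugs), 53 with its size factors, 2 on library totals, 37 without the most abundant gene, 48 without a filter, 58 with at least 10 counts in every valve and 0 at an adjusted p under 0.01. The valves share only replicate numbers (correlations over 30 pairs from -0.342 to 0.492, 6 over 0.1), and the replicate block left 3527 called genes and 1 between Serotonin and Control, and CDH19 was called lower with it. Chosen after seeing the data, leaving out Control 3 and Dexfenfluramine 3 gave 481 of these genes, and the cardiomyocyte covariate 195.

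With 1 valve left out, 3421 to 3810 genes were called, 664 to 735 were separated, 980 to 1160 passed in all 4, 0 differed between the drugs and 0 to 257 between Serotonin and Control, and the difference in total count ran from -55167 to 241937. Signs turned on library totals for SOS1 (0.18), GNA13 (0.13), MYC (0.28), GYPC (0.082), CDH19 (0.016) and S100B (0.040), and with the covariate for CDH19 (0.011). Genes with few reads, such as RPL21 and SNORA74, are limited by depth.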
